A study of Mus musculus with 12 samples.

Results

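The genes described here encode the enzymes that remove superoxide and peroxides, make and recycle glutathione, and couple glutathione to reactive compounds, together with the regulators of these enzymes. They were chosen by gene symbol in the platform annotation, and 53 of 17742 named genes were members, measured by 57 of 26423 probes. Where several probes named a gene, its brightest probe on average over the 12 arrays stands for it. Whole hearts of C57bl/6 X 129 hybrid mice at postnatal day 8 were profiled on 1-colour arrays, namely 2 samples labelled as Salvador mutant (Salv CKO) and 2 as wild type (Control), each on 3 technical arrays. The sources used here do not give the Cre driver, the deleted part of the Salvador gene or whether hearts were pooled. A label of the source material calls the tissue embryonic, whereas stage and protocol give P8. The number of samples limits the precision of every value below.

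Superoxide formed by the respiratory chain is turned into hydrogen peroxide by superoxide dismutases, and catalase, glutathione peroxidases and peroxiredoxins reduce the peroxide further. Glutathione and thioredoxin supply the electrons and are reduced again by reductases that use NADPH. The transcription factor Nrf2 (Nfe2l2), held in the cytoplasm by Keap1 and degraded there, switches on many of these genes through a DNA element called the antioxidant response element. After birth, heart muscle turns to oxidative metabolism, in which the respiratory chain is a source of superoxide.

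Levels are given as log2 of the quantile-normalized intensity plus 1, and every difference is Salv CKO minus Control on that scale, which understates the change of dim probes. The library labels could not be checked through the targeted gene. Sav1 stood at 8.06 and 8.52 in Salv CKO, against 8.75 and 8.08 in Control (difference -0.12 ± 0.34, SE, n = 2 each, adjusted p = 0.998 in limma), and a probe outside the deleted part would check nothing. Directions below are therefore those of the labels. The 6 measured heart muscle markers stood at 14.68 to 15.62 in all samples. Markers of other cells varied more between samples. The 8 measured airway and alveolar genes summed to normalized intensities of 2110 and 471 in Salv CKO, against 544 and 7697 in Control. The 11 brown fat and adipocyte genes summed to 21290 and 16420, against 27590 and 23070, and the 9 red cell genes to 11400 and 15800, against 13370 and 7239. Fabp4, at 13.61 to 13.91, made up the largest part of the brown fat sums. Ucp1 varied more, with 11.95 and 9.75 in Salv CKO, against 12.71 and 11.74 in Control. Differences were negative for 9 of these 11 genes and positive for 2. No measured marker on these lists lay at 0 in all samples, and the part of these cells in the results below was not tested.

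No antioxidant or glutathione gene passed the test between the groups. Over all 26423 probes limma called 0.0% at an adjusted p of 0.05, and 0 of the 53 members passed. The differences were small: 40 of the 53 lay within 0.25 of 0, or 75.5%, against 60.9% of all named genes. Members had brighter probes than genes in general, and outside the dimmest 50% of probes these shares were 75.0% of 40 members and 70.8% of 10593 named genes. Beyond 0.5 lay 4 of the 53 members, against 2559 of 17742 named genes. Outside the dimmest 50% of probes these counts were 2 of 40 members and 740 of 10593 named genes. The 4 members were Gstm6, Gstm2 and Gstp1, which conjugate glutathione, and the quinone reductase gene Nqo1. At an unadjusted p under 0.05 there was 1 member, Gstm6, against 3.31% of all named genes. The samples of the 2 groups did not overlap for 11 members, or 20.8%, against 30.7% of all named genes. Of these, 6 were higher in Salv CKO and 5 lower. The median difference was 0.035 over the members and -0.020 over all named genes. Differences were positive for 31 members (58.5%, against 46.9% of named genes). This split depended on the scaling, among the members and over all named genes. When the arrays were not normalized, 36 members were positive (67.92%, against 61.63% of named genes). Under centring of every array on its median, 19 were positive (35.85%, against 36.77%).

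**Figure D1:**
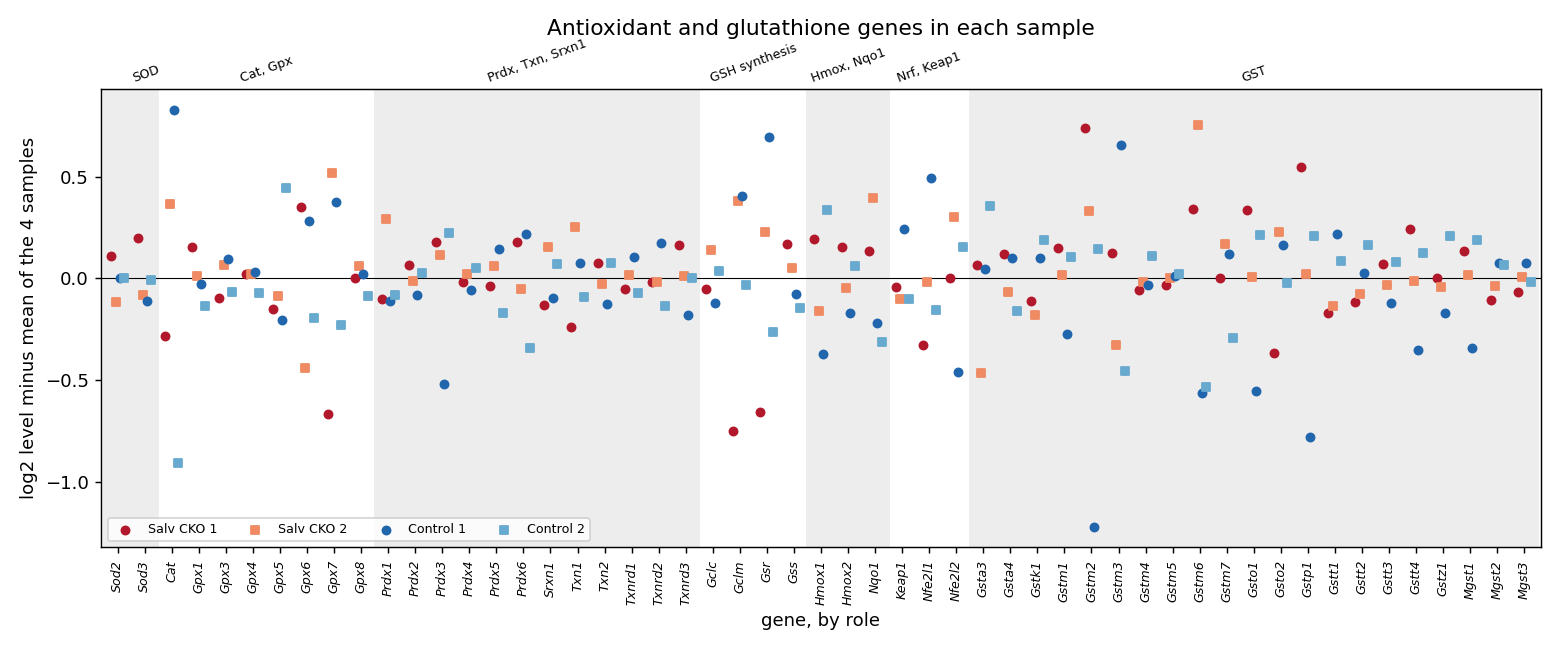
Level of each of the 53 genes in each sample, minus the mean of the 4 samples (log2 scale), grouped by role from left to right; circles are samples numbered 1 and squares samples numbered 2. Gstm2 in Control 1 lies farthest from its gene's mean, and Prdx4, Gpx4 and Gstm5 have all 4 samples close to 0.

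**Figure D2:**
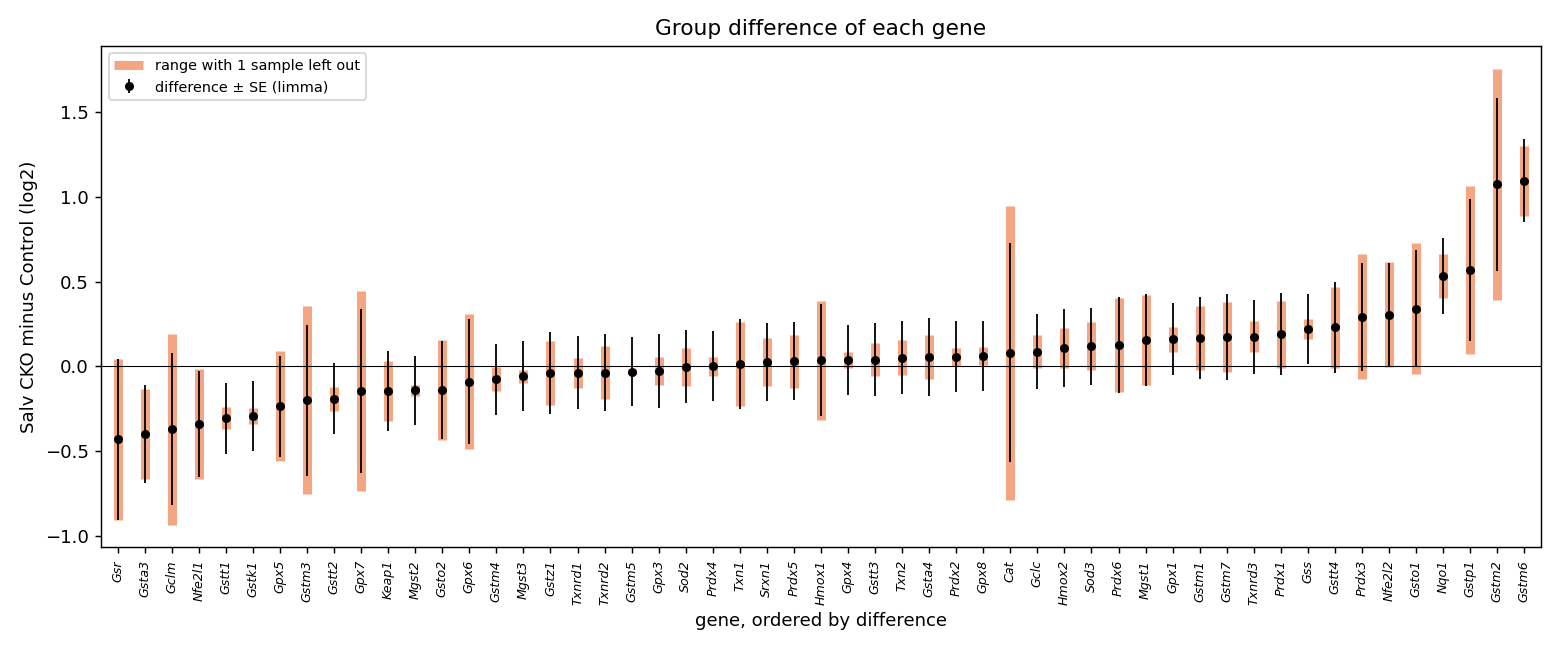
Difference Salv CKO minus Control for each gene, ordered from Gsr (-0.43) to Gstm6 (1.10); black points and lines are the limma difference ± SE (2 samples a group), and the wide bars span the 4 values obtained with 1 sample left out. The bars of Cat, Gsr and Gclm are long and cross 0, that of Gstm2 is long and stays above 0, and those of Gstm6, Nqo1 and Gstt1 stay on one side of 0.

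Among the regulators, the activator and its relative lay on opposite sides of 0, with Control 1 as the extreme sample of both. Nfe2l2, which encodes Nrf2, had levels of 10.31 and 10.61 in Salv CKO, against 9.85 and 10.46 in Control. Control 1 was the lowest sample, and Control 2 lay between the Salv CKO samples. The difference was 0.31 ± 0.30 (SE, n = 2 each, limma adjusted p = 0.998), and -0.0018 without Control 1. Nfe2l1, which encodes Nrf1, a membrane-bound relative that drives proteasome genes, had 11.48 and 11.79 in Salv CKO, against 12.30 and 11.65 in Control. Its highest sample was again Control 1, and the groups overlapped. The difference of -0.34 ± 0.31 (SE, limma adjusted p = 0.998) was -0.017 without Control 1. Keap1, the adaptor that marks Nrf2 for degradation, had 9.88 and 9.82 in Salv CKO, against 10.17 and 9.82 in Control. Its difference of -0.15 ± 0.23 became 0.029 without Control 1.

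Nrf2 acts on its targets through the response element, so the 300 bases around the start sites of the members (250 before and 50 after) were searched for the core of that element. The motif was TGACNNNGC, on both strands, with N for any base. RefSeq promoter windows on GRCm38.p6 were at hand for 46 of the 53 members, and 9 of these, or 19.6%, held a match in at least 1 window, against 14.0% of the 27025 genes with a window. The 46 members had 66 windows and the 27025 genes had 32851. Members thus had more windows per gene, and the shares were not adjusted for that. The matches are shown with 10 bases on either side, on the strand of the gene, with the motif in capitals. They are given because they mark the members that carry the letters of the element near the start.
Nfe2l2 (chr2:75704885-75704913, minus strand): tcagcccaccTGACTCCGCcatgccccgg
Gclm (chr3:122245413-122245441, plus strand, motif reversed): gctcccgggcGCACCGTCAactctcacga
Srxn1 (chr2:152105542-152105570, plus strand, motif reversed): gcagtgggcaGCTAGGTCAgagtgagaca
Txnrd1 (chr10:82859104-82859132, plus strand, motif reversed): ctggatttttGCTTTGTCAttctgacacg
Prdx1 (chr4:116685456-116685484, plus strand, motif reversed): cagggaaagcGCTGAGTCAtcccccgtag
Gsta3 (chr1:21240454-21240482, plus strand): aactcaggcaTGACATTGCatttttcttc
Gstm5 (chr3:107895802-107895830, plus strand): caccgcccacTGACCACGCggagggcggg
Gstm7 (chr3:107931725-107931753, minus strand): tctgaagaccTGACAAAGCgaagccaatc
Mgst1 (chr6:138140461-138140489, plus strand, motif reversed): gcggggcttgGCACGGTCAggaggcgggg
The match began 240 bases before the start site in Nfe2l2, 42 before it in Gstm5, and lay after it only in Srxn1. A match is a run of letters and not a bound site. The differences of these 9 genes ran from -0.40 (Gsta3) to 0.31 (Nfe2l2). The members with the largest differences, Gstm6, Gstm2, Gstp1 and Nqo1, had no match in their windows. Sequence farther from the start site was not searched, so a gene without a match here may still have the element. The 7 members without a window were Gclc, Gsr, Hmox1, Gstt2, Prdx6, Sod3 and Gsta4.

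Of the inducible detoxifying enzymes, Nqo1 kept the groups apart on every array after normalization. Nqo1 reduces quinones with NADPH and is a standard readout of Nrf2 in mouse tissue. Its level was 6.18 and 6.43 in Salv CKO, against 5.82 and 5.72 in Control. Its probe was dim, with deposited intensities averaging 72.3 and 98.0 in Salv CKO, against 52.0 and 48.7 in Control. Before normalization the arrays of the groups met, with the lowest Salv CKO array and the highest control array both at 66. After normalization all 6 Salv CKO arrays lay above all 6 control arrays, a pattern that 4 members and 5.94% of all named genes showed in either direction. The difference was 0.53 ± 0.22 (SE, n = 2 each, limma adjusted p = 0.998), and 0.40 to 0.66 with 1 sample left out. Heme oxygenase 1, Hmox1, which breaks down heme and is abundant in macrophages, had 9.47 and 9.12 in Salv CKO, against 8.91 and 9.62 in Control. The controls held both its lowest and its highest sample, and the difference was 0.035 ± 0.33. The 10 measured macrophage genes summed to normalized intensities of 8108 and 7737 in Salv CKO, against 7592 and 8707 in Control, with none at 0, and their part in the level of Hmox1 was not tested. Hmox2, the constitutive heme oxygenase, differed by 0.11 ± 0.23 on its brightest probe. Its levels there were 12.69 and 12.49 in Salv CKO, against 12.37 and 12.60 in Control. Of its dimmer probes, that at a mean intensity of 178 differed by 0.61 and that at 0.417 by -0.38, and no direction can be read from a probe at that intensity.

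Of the 4 genes of glutathione synthesis and reduction, 2 differences were positive and 2 negative. Gclc, the catalytic subunit of the rate-limiting ligase, had 6.92 and 7.12 in Salv CKO, against 6.85 and 7.01 in Control (difference 0.087 ± 0.22, SE). Gclm, its modifier subunit, had 4.68 and 5.80 in Salv CKO, against 5.83 and 5.39 in Control. Salv CKO 1 was the lowest sample of Gclm, and the difference of -0.37 ± 0.45 became 0.19 without it. Gsr, glutathione reductase, showed the same low sample, with 6.19 and 7.07 in Salv CKO, against 7.54 and 6.58 in Control. Its difference, -0.43 ± 0.47 (SE, limma adjusted p = 0.998), was 0.010 without Salv CKO 1 and 0.046 without Control 1. Gss, glutathione synthetase, was the only one of the 4 without overlap between the groups, at 9.76 and 9.64 in Salv CKO, against 9.51 and 9.44 in Control. Its difference was 0.22 ± 0.21, and leaving out single samples gave 0.16 to 0.28.

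The peroxide-removing enzymes with bright probes spanned narrow ranges over the 4 samples. Gpx1, the cytosolic glutathione peroxidase, had 13.08 and 12.94 in Salv CKO, against 12.90 and 12.79 in Control. Its groups did not overlap, and the difference was 0.16 ± 0.21 (SE, limma adjusted p = 0.998). Under median centring that difference was -0.062. Gpx3, the plasma enzyme, Gpx4, which reduces lipid hydroperoxides in membranes, and Gpx8, of the endoplasmic reticulum, differed by -0.029, 0.038 and 0.062. Gpx8 had 10.99 and 11.05 in Salv CKO, against 11.01 and 10.90 in Control. Gpx4 spanned 13.54 to 13.64 over the 4 samples, and its dimmer second probe differed by 0.15. The probes of Gpx5 and Gpx6, known from epididymis and olfactory tissue, had mean intensities of 5.92 and 8.42. Gpx5 had 2.55 and 2.61 in Salv CKO, against 2.49 and 3.14 in Control. Gpx7, a relative of Gpx8 also found in the endoplasmic reticulum, had 3.35 and 4.54 in Salv CKO, against 4.39 and 3.79 in Control, at a mean intensity of 17.5. Catalase, Cat, which splits hydrogen peroxide in peroxisomes, was also dim here. Its arrays averaged intensities of 8 and 16 in Salv CKO, against 15.3 and 4.33 in Control, and the difference was 0.081 ± 0.64, with -0.79 to 0.95 when single samples were left out. The level of catalase was not resolved at that intensity.

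In the thioredoxin system 10 of 12 differences were positive, and the largest was 0.29. That count was 9 of 12 without normalization and 5 of 12 with median centring. Among the peroxiredoxins, Prdx3, which clears peroxide in mitochondria, had 8.56 and 8.50 in Salv CKO, against 7.87 and 8.61 in Control. Control 1 stood apart below the other 3, and the difference of 0.29 ± 0.32 became -0.076 without it. Prdx1, a cytosolic enzyme induced by Nrf2, had 7.08 and 7.48 in Salv CKO, against 7.08 and 7.11 in Control, so that Salv CKO 2 was the high sample (difference 0.19 ± 0.24, and -0.0073 without Salv CKO 2). Prdx2, which is abundant in red cells, spanned 13.28 to 13.43. The summed intensities of the red cell list are given above, and the part of red cells in the level of Prdx2 was not tested. Prdx4 and Prdx5, of the endoplasmic reticulum and the mitochondria, differed by 0.00049 and 0.029. Prdx6, which also reduces phospholipid hydroperoxides, had 5.64 and 5.41 in Salv CKO, against 5.68 and 5.12 in Control at a mean intensity of 44.1, and differed by 0.12 ± 0.28.

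Txnrd1 and Txnrd2, the selenium-containing thioredoxin reductases of the cytosol and the mitochondria, both differed by -0.037. Txnrd1 had 10.83 and 10.90 in Salv CKO, against 10.99 and 10.81 in Control. Txnrd3, a form best known from testis, had 9.70 and 9.55 in Salv CKO, against 9.36 and 9.54 in Control. Its Salv CKO samples lay above both controls by a narrow margin, and the difference was 0.18 ± 0.22 (SE, limma adjusted p = 0.998). Srxn1, sulfiredoxin, which restores overoxidised peroxiredoxins and is an Nrf2 target, had 8.10 and 8.38 in Salv CKO, against 8.13 and 8.30 in Control. Its control samples lay between the Salv CKO samples, and the difference was 0.027 ± 0.23. The mitochondrial thioredoxin Txn2 differed by 0.051, and cytosolic Txn1, with a mean intensity of 26.1, by 0.014. Of the superoxide dismutases, the mitochondrial enzyme Sod2 had 13.33 and 13.10 in Salv CKO, against 13.22 and 13.22 in Control, a difference of -0.0023 ± 0.22. A second probe of Sod2, at a mean intensity of 8.25, differed by -0.28. Extracellular Sod3 had 7.51 and 7.23 in Salv CKO, against 7.20 and 7.30 in Control, and differed by 0.12 ± 0.23. Sod1 and Gpx2 were not analysed here.

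The glutathione S-transferases held both the largest positive differences and all 5 negative differences without overlap. Of 21 genes, 10 differences were positive and 11 negative (14 positive without normalization and 8 with median centring). In 2 of them the Salv CKO samples lay above both controls, and in 5 below. The corresponding shares were 14.2% and 16.5% of all named genes.

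Gstm6, a transferase of the mu class, was the member with the smallest p. Its level was 5.02 and 5.43 in Salv CKO, against 4.12 and 4.15 in Control. Before normalization its arrays averaged 35.3 and 47.0 in Salv CKO, against 14.3 and 15 in Control, which puts its probe in the dimmest 50% of all probes. The sample means did not overlap, but the arrays did, since Salv CKO 1 reached down to 4.62 and Control 1 up to 4.66. The difference was 1.10 ± 0.25 (SE, n = 2 each, limma adjusted p = 0.998). It was 0.67 with a pseudocount of 16, which weighs dim values less, and 0.89 to 1.30 with 1 sample left out. Gstm2 had 9.16 and 8.76 in Salv CKO, against 7.21 and 8.57 in Control. Control 1 lay far below the other 3 samples, with intensities of 134 to 151 on its arrays, whereas those of Control 2 were 328 to 361 and those of Salv CKO 464 to 540. The difference of 1.07 ± 0.51 (SE, limma adjusted p = 0.998) was 0.39 without Control 1 and 1.76 without Control 2.

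The other mu class genes had smaller differences, and the contrast with Gstm6 and Gstm2 was not tested. The 7 Gstm genes stand next to each other on chromosome 3, with no other protein-coding gene between them in RefSeq. Gstm1, Gstm4, Gstm5 and Gstm7 differed by 0.17, -0.076, -0.031 and 0.17. Gstm5 spanned 10.29 to 10.34, the smallest range among all members, and its groups did not overlap although the difference was -0.031. The probe of Gstm3 had a mean intensity of 0.417. Genes of the mu class resemble each other closely in sequence, the probe sequences were not at hand, and signal from a close relative on any of these probes cannot be told apart.

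Gstp1, of the pi class, and Gsto1, of the omega class, also had their lowest level in Control 1, at brighter probes than Gstm2. Gstp1 had 11.04 and 10.51 in Salv CKO, against 9.71 and 10.70 in Control. Control 2 lay above Salv CKO 2, so the groups overlapped. The difference was 0.57 ± 0.42 (SE, limma adjusted p = 0.998), and 0.075 without Control 1. Gsto1 had 13.29 and 12.96 in Salv CKO, against 12.40 and 13.17 in Control, and differed by 0.34 ± 0.34, or by -0.045 without Control 1. In both genes Salv CKO 1 and Control 2 were the 2 highest samples. Other members shared these 2 highest samples, among them Sod3, Prdx2, Prdx3, Txn2, Hmox1, Hmox2, Gsta3, Gstm1, Gstt3, Gstt4, Gstz1 and Mgst1. The summed intensity of the airway and alveolar list, given above, was also highest in these samples. Of its genes, Scgb1a1, Scgb3a1, Scgb3a2, Sftpb, Sftpc and Sftpd had the same 2 highest samples, and Sftpa1 and Foxj1 did not. Scgb3a2 had 10.61 and 3.29 in Salv CKO, against 4.02 and 11.55 in Control. Foxj1, a gene of ciliated cells, had 5.80 and 8.53 in Salv CKO, against 8.82 and 7.24 in Control. The part of airway cells in the levels of Gstp1, Gsto1 and the other members with this pattern was not tested. Fewer cells of a type and less RNA per cell cannot be told apart in whole hearts.

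**Figure D3:**
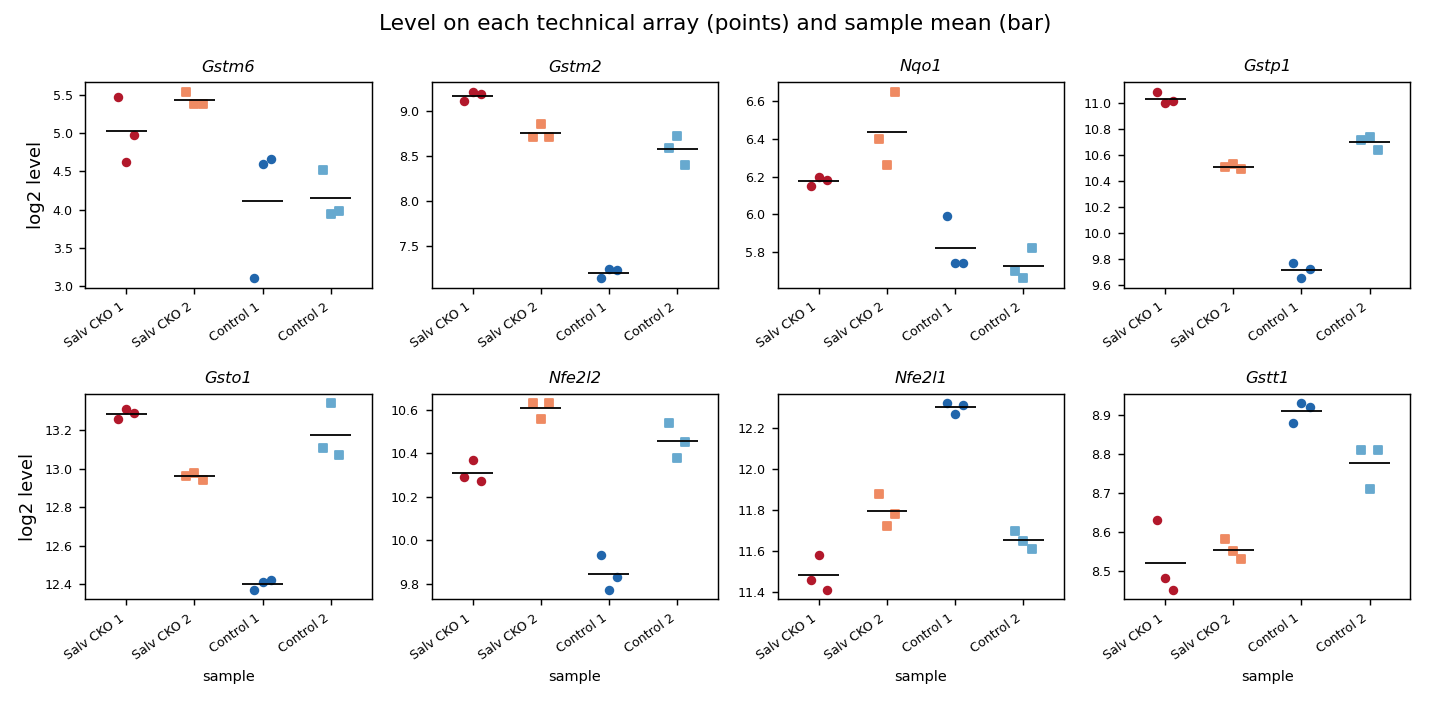
Log2 level on each of the 3 technical arrays (points) and sample mean (bars) for 8 genes, with an axis of its own for each gene. Nqo1 and Gstt1 separate the groups on every array, the arrays of Gstm6 overlap, and in Gstm2, Gstp1, Gsto1, Nfe2l2 and Nfe2l1 the arrays of Control 1 stand apart together.

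Of the theta and kappa class genes, Gstt1, Gstt2 and Gstk1 had lower normalized levels in Salv CKO on every array. Gstt3 and Gstt4 did not. Before normalization the groups overlapped in the sample means of Gstt1, Gstt2 and Gstk1. Intensities in Salv CKO 2 against Control 2 averaged 439 against 403 for Gstt1, 313 against 293 for Gstt2 and 1210 against 1208 for Gstk1. Gstt1, which acts on small halogenated compounds, had 8.52 and 8.55 in Salv CKO, against 8.91 and 8.78 in Control. All its Salv CKO arrays lay below all its control arrays, and the difference was -0.31 ± 0.21 (SE, limma adjusted p = 0.998). Its range with 1 sample left out was -0.37 to -0.24. Gstt2 had 8.03 and 8.07 in Salv CKO, against 8.17 and 8.31 in Control, and differed by -0.19 ± 0.21. Its highest Salv CKO array, at 8.121, and its lowest control array, at 8.125, lay closer together than the SD between technical arrays of 0.0854. Gstk1, a mitochondrial and peroxisomal transferase, had 10.07 and 9.999 in Salv CKO, against 10.28 and 10.37 in Control. Its arrays did not overlap either, and it differed by -0.29 ± 0.21 (-0.34 to -0.24 with 1 sample left out). Together with Nqo1, these are the 4 members separated on all arrays after normalization. Outside the dimmest 50% of probes, 3 of 40 members showed that pattern, against 941 of 10593 named genes. The SD between samples was 0.068 for Gstt1, 0.073 for Gstt2 and 0.058 for Gstk1, and limma draws such SDs toward the spread of all probes. Gstt3 and Gstt4, next to Gstt1 and Gstt2 on chromosome 10, differed by 0.039 and 0.23, and Gstt4 had a mean intensity of 6.25.

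The differences of the remaining transferases lay between -0.40 and 0.15. Gsta3, of the alpha class, had 7.18 and 6.65 in Salv CKO, against 7.17 and 7.47 in Control, and differed by -0.40 ± 0.29 (SE, limma adjusted p = 0.998), or by -0.14 without Salv CKO 2. Gsta4, which removes the lipid peroxidation product 4-hydroxynonenal, differed by 0.053, and Gstz1, which also serves tyrosine breakdown, by -0.039. Gsto2 differed by -0.14. Of the membrane-bound enzymes, Mgst1 differed by 0.15, Mgst2, dim and without overlap, by -0.14, and Mgst3 by -0.059.

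The spread of the members is given between the samples of a group, which holds both biological and array variation, and between arrays of the same RNA. The SD between samples is that of means of 3 arrays, and the SD between technical arrays is that of single arrays. Equal SDs therefore do not mark a lack of variation between samples. The SD between samples exceeded that between technical arrays in 38 of 53 members, or 71.7%, against 62.0% of named genes. The median SDs were 0.164 between samples and 0.0914 between arrays. Gstp1 had a sample SD of 0.559 and an array SD of 0.0485, Gstm2 of 0.711 and 0.0956, and Nfe2l2 of 0.342 and 0.0657. Control 1 held the lowest level of 21 members, or 39.6%, against 27.4% of named genes, and the highest of 15, or 28.3%, against 38.1%. Salv CKO 2 was lowest for 5 members, or 9.43%, against 18.4% of named genes. These shares were not tested.

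**Figure D4:**
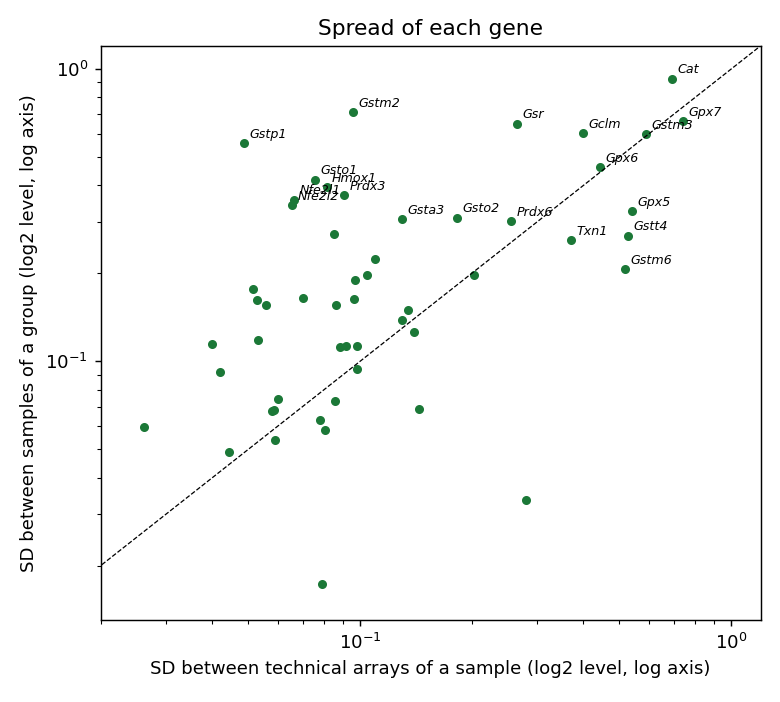
SD between the samples of a group against SD between the technical arrays of a sample for the 53 genes, both axes logarithmic and in log2 levels; the dashed line marks equality. Gstp1, Gstm2, Gsto1, Hmox1, Nfe2l1 and Nfe2l2 lie well above the line, and dim probes such as Gpx5, Gstt4 and Gstm6 lie below it. The SD between samples uses means of 3 arrays, so a gene below the line can still vary between samples.

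**Figure D5:**
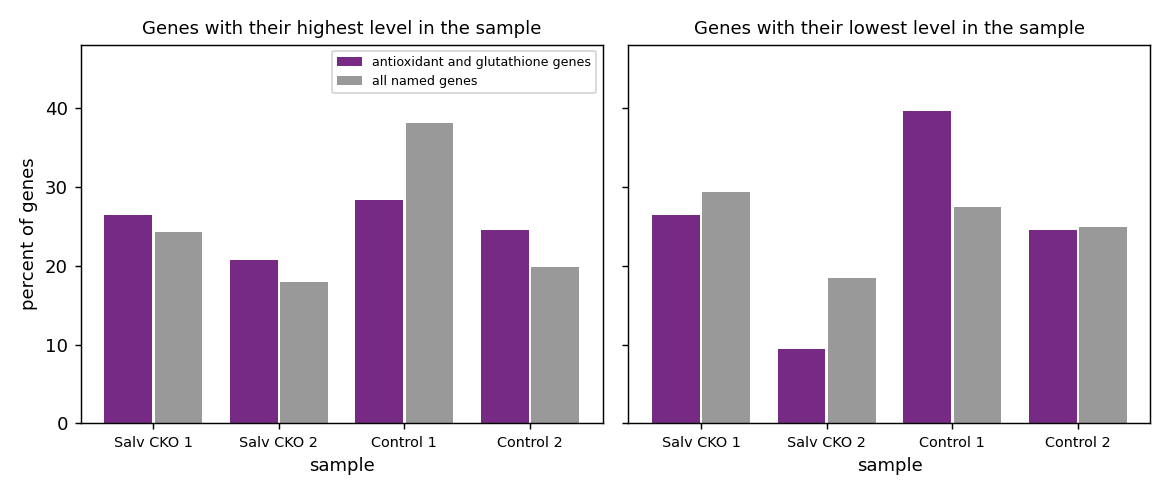
Percent of the 53 antioxidant and glutathione genes (purple) and of all 17742 named genes (grey) whose highest (left) or lowest (right) level fell in each sample. Control 1 was the lowest sample for 39.6% of the 53 genes and for 27.4% of all named genes.

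Of the 80 other measured genes of redox metabolism, counted by list, 0 passed over all probes in limma and 1 had an unadjusted p under 0.05. Among genes that supply NADPH, 4 of 8 were positive, with Idh1, the cytosolic isocitrate dehydrogenase, at 11.13 and 11.16 in Salv CKO, against 10.30 and 10.74 in Control (difference 0.62 ± 0.25, SE, limma adjusted p = 0.998), and malic enzyme Me1 at 0.39. In glutathione turnover 8 of 12 were positive. Ggt1, which cleaves extracellular glutathione, was that gene, with 4.55 and 3.82 in Salv CKO, against 2.77 and 3.39 in Control at a mean intensity of 14.0, and the cystathionine synthase Cbs differed by 0.65. Other detoxification genes had 7 of 15 positive, with the carbonyl reductase Cbr3 at -0.32 and the transporter Abcc3 at -0.30. Partners and repressors of Nrf2 had 4 of 8 positive, with the small Maf gene Mafk at -0.74 ± 0.53 and Nfe2, an erythroid relative of Nrf2, at -0.42. Mafk had 9.23 and 10.59 in Salv CKO, against 10.95 and 10.36 in Control, so Salv CKO 1 was the low sample and the groups overlapped.

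Glutaredoxins and redox repair genes had 6 of 15 positive. The sestrin Sesn2, dim at 11.7, differed by 0.61, and Msrb1, which repairs oxidised methionine, by -0.43 ± 0.22, with 10.91 and 11.12 in Salv CKO, against 11.50 and 11.40 in Control. Iron, copper and metal genes had 4 of 8 positive, with the ferritin light chain Ftl1 (mean intensity 12.5) at 0.68 and the metallothionein Mt2 at -0.30. Sources of superoxide and peroxide had 4 of 6 positive. Monoamine oxidase B, Maob, had 10.35 and 10.07 in Salv CKO, against 7.93 and 10.37 in Control, so Control 1 again lay below the other 3, and Xdh differed by 0.38. Selenoprotein synthesis genes had 3 of 8 positive, with Trnau1ap at -0.41 and Eefsec at 0.26.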

How the data were processed

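RNA from 4 whole-heart samples was hybridised to 12 arrays in 1 colour, and the labels call the 2 samples of a group biological replicates. The p-values rest on the spread between these samples, which limma draws toward the spread of all probes, and on no further replicates. The deposited values are intensities per probe, whole numbers from -10 to 65474 with array medians of 58 to 88; the sources used here do not give scanner settings or any correction by the authors. Arrays were quantile-normalized, normalized values below 0 were set to 0.0833, and log2 of the normalized intensity plus 1 was taken. Each sample's 3 technical arrays were then averaged, and limma 3.58.1 (R 4.3.3, lmFit and eBayes) was fitted over 26423 probes with Benjamini-Hochberg adjustment at 0.05, after tests on simulated data. Symbols came from the platform annotation, updated through the RefSeq table (GRCm38.p6). Values by sample are given for the members of smallest p, at most 4 a role (8 among transferases), and for a fixed set of well-known genes; other genes of a list go by the 2 smallest p. Gstm5, Gpx4, Prdx2, Scgb3a2, Foxj1, Fabp4 and Ucp1 were singled out after their values were seen. Members and lists were chosen with earlier results of these data known. The alternatives were other scalings, pseudocounts, array averages, filters and blocks, and each sample left out.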

Additional observations from a re-analysis of the deposited data

How the results depend on the processing

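No member passed an adjusted p of 0.05 in limma under any alternative. The count over all probes, 0 with quantile normalization, was 14 without normalization, 2 with median centring and 61 when the 12 arrays were fitted with sample as a random block, and 0 in the others, including each sample left out. The scaling moved the median of all probes, which was -0.010 with quantile normalization, 0.11 without normalization and -0.078 with centring. The count of members at an unadjusted p under 0.05, 1 in the reported fit, was 2 without normalization, with median centring, with a pseudocount of 16, with the median of technical arrays, without the dimmest 25% of probes and with the crossed replicate block, 5 with the random block, 0 without the dimmest 50% of probes, and 0 to 3 with 1 sample left out (0 without Salv CKO 2, 3 without Control 2). Over all 26423 probes that count was 1048 in the reported fit, 2202 with the random block and 1308 without normalization. It was 962 with median centring and 776 with a pseudocount of 16. With the random block the count therefore rose over all probes as well as among the members. Counts with 1 sample left out rest on 1 sample in a group, so no conclusion is drawn from them. Positive differences numbered 19 with median centring and 26 to 32 with 1 sample left out. The median difference of the members was 0.079 without normalization, -0.11 with centring, 0.029 with a pseudocount of 16, 0.023 with the median of technical arrays, and -0.0020 to 0.027 with 1 sample left out.

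With all 4 samples the sign turned for Sod2 (0.0092, median of technical arrays), Cat (-0.0062, pseudocount of 16) and Gpx7 (0.16, no normalization). The cause of these turns was not tested. With median centring the sign turned for Gpx1 (-0.062), Gpx8 (-0.14), Srxn1 (-0.064), Hmox1 (-0.11) and Hmox2 (-0.14), all positive without normalization. Centring subtracts 1 constant from every gene of an array, so it moves the unnormalized differences of all genes by the same amount. With 1 sample left out, 18 of the 31 genes given by sample turned sign. Their ranges were -0.11 to 0.11 for Sod2, -0.022 to 0.26 for Sod3, -0.79 to 0.95 for Cat, -0.56 to 0.088 for Gpx5, -0.74 to 0.45 for Gpx7, -0.0073 to 0.39 for Prdx1, -0.076 to 0.66 for Prdx3, -0.15 to 0.40 for Prdx6, -0.12 to 0.17 for Srxn1, -0.13 to 0.050 for Txnrd1, -0.011 to 0.18 for Gclc, -0.93 to 0.19 for Gclm, -0.91 to 0.046 for Gsr, -0.32 to 0.39 for Hmox1, -0.012 to 0.23 for Hmox2, -0.32 to 0.029 for Keap1, -0.0018 to 0.61 for Nfe2l2 and -0.045 to 0.73 for Gsto1. Of the 31, 11 kept their sign in every setting.

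Across the groups, samples of the same number share that number and neighbouring array codes in the titles. The deviations of Salv CKO 1 and Control 1 from their group means correlated at -0.253 over probes. With the replicate block, limma called 0 probes and 0 members, with 743 probes at an unadjusted p under 0.05 against 1048 without it. The crossed replicate block, chosen after seeing the data, gave 0 and 1545. Probes in the dimmest 50%, 13 of the 53 members, are limited by their signal.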
